A study of Mus musculus with 2 samples.

Results

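Inhibitory immune receptors of microglia were described as a set of 8 genes, Pirb, Pilra, Lilrb4a, Siglece, Cd33, Cd300a, Sirpa and Cd200r1, out of the 32285 genes of the count table. The genes were taken by name, and all 8 had a row. The mice were PSAPP mice of genotype APPswe/PS1δE9, a model in which mutant APP and presenilin 1 transgenes drive plaque formation. Both groups bear these transgenes, and no wild-type library entered. They received vehicle (VEH) or lemborexant (LEM), a drug that blocks both orexin receptors. Both were given daily by gavage over 30 days, LEM at 30 mg/kg/day, which took the animals from 9 to 10 months of age. Live CD45loCD11b+ cells without DAPI were sorted from the cortex and hippocampus of a hemisphere, and the cells of 5 mice, males and females, were pooled into 1 5′ library per treatment. The comparison of LEM with VEH asks how microglial RNA differs after the drug. With 1 library per group no test can be made, so a difference between libraries is a difference between a pair of pools, and every interval below covers counting error only.

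These receptors are grouped as inhibitory receptors of microglia and other myeloid cells. Most carry short tyrosine motifs (ITIMs) in the cytoplasmic tail that recruit the phosphatases SHP-1 (Ptpn6), SHP-2 (Ptpn11) or SHIP-1 (Inpp5d) once Src family kinases have phosphorylated them, which opposes signals of activating receptors such as TREM2 with its adaptor DAP12 (Tyrobp). PIRB binds MHC class I and has been described as a receptor for amyloid-β oligomers. PILRA binds O-glycosylated, sialylated ligands such as PIANP. LILRB4 belongs to the leukocyte immunoglobulin-like receptors, Siglec-E and CD33 read sialic acids, and CD300A binds the aminophospholipids that dying cells expose. SIRPα is the receptor for CD47, which limits phagocytosis, and CD200R1 binds neuronal CD200 and works through Dok adaptors without an ITIM. PILRA and CD33 are known in human genetics for variants linked to Alzheimer's disease.

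The VEH library held 18374 cells and 116229678 counts of unique molecular identifiers, with a median of 5971 per cell, and the LEM library 24392 cells and 160752298 counts, with a median of 6034. Cells were sorted into states by raw counts of marker genes, none of which is a receptor described here. The homeostatic gate took 15360 VEH and 19863 LEM cells with P2ry12, Cx3cr1 or Tmem119, the disease-associated microglia (DAM) gate 442 and 573 cells with at least 3 of Cst7, Lpl, Itgax and Spp1, the interferon gate 234 and 417, the proliferating gate 141 and 209, and the gate of border-associated macrophages (BAM) 24 and 64. Among genes that did not define the DAM gate, Apoe was at 6652 and 6903 CPM (counts of a gene per 1000000 counts of the library or gate) in VEH and LEM against 979 and 1628 in the homeostatic gate, and Csf1 at 259 and 242 against 15.7 and 16.6. Markers of granulocytes, T cells and NK cells summed to at most 0.163 CPM in either library, and those of monocytes to 8.56 and 10.0 CPM. Those of oligodendrocytes summed to 28.0 and 29.9 CPM, of B cells to 13.9 and 11.3 and of endothelial cells to 13.2 and 10.1, each mostly from a single gene. Choroid plexus markers summed to 435 CPM in VEH and 1315 in LEM. The 54 and 149 droplets of the choroid plexus gate served as an upper bound on free RNA, since microglial markers summed to 27872 and 22261 CPM in them against 41552 and 42558 in the homeostatic gate. They thus held much microglial RNA, and a share near theirs does not decide where a transcript came from.

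Pirb and Pilra were the receptors that differed most between the libraries among those detected in at least 10% of cells. Pirb was at 21.6 CPM in VEH and 29.5 in LEM, from 2510 and 4739 counts (log2 ratio 0.45, 0.38 to 0.52). It was detected in 11.9% of cells in VEH and 16.5% in LEM, in 4.53% and 5.97% with every cell thinned to 2000 counts, and in 7.41% and 14.1% of choroid plexus droplets at medians of 9246 and 8035 counts. Pilra was at 41.1 CPM in VEH and 49.5 in LEM (log2 ratio 0.27, 0.21 to 0.32), in 20.5% and 24.4% of cells against 24.1% and 20.8% of choroid plexus droplets, so its share in VEH was not above the level of those droplets. Both were thus higher in LEM in level and in the share of cells, and among the 7526 genes past the detection minimum the ratio of Pirb stood at the percentile 99.3 and that of Pilra at 98.0. The study itself reports Pirb and Pilra on these libraries as higher in average level only, without a rise in the proportion of cells. The direction of the level is thus not independent evidence. The shares printed here, of cells with any count, differ from that account. They come from the same counts as the level and are not separate evidence either.

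The receptors for sialic acids and lipids moved less. Cd33 was at 340 CPM in VEH and 368 in LEM (log2 ratio 0.12, 0.10 to 0.13). Cd300a was at 222 and 236 CPM (0.09, 0.07 to 0.11). Siglece stood at 56.7 and 58.1 CPM, with an interval of the log2 ratio that held 0 (0.03, -0.01 to 0.08). These levels differed by little against the ratio of Pirb, and only that of Cd33 was past the fold of 0.1 on the log2 scale that the methods of the study use. The receptors for host cell ligands were level: Sirpa, the receptor for CD47, was at 1228 CPM in VEH and 1263 in LEM (0.04, 0.03 to 0.05), in 97.4% of cells of both libraries. Cd200r1 was at 24.2 and 23.9 CPM (-0.02, -0.09 to 0.05). In VEH it was found in 13.6% of all cells and in 20.4% of choroid plexus droplets with a median of 9246 counts, so at this depth its share could not be told from free RNA there, while in LEM the shares were 14.0% and 8.72%. Lilrb4a was under the detection minimum, with counts in 2.01% of cells in VEH and 2.16% in LEM, at 6.18 and 7.40 CPM (0.26, 0.13 to 0.40), and in female cells alone the interval held 0.

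In counts, 3 of the 7 receptors past the detection minimum were higher in LEM by more than 0.1 on the log2 scale (Pirb, Pilra and Cd33), where 14.1% of all genes tested were, and 0 of 7 were lower by more than 0.1, where 9.86% of genes were. The median log2 ratio of the 7 was 0.09, and that of all genes tested 0.01. The study names the level of Pirb and Pilra, and the receptors were chosen with earlier results of these data known. The count and the median may be partly set by that choice and are a description only.

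**Figure D1:**
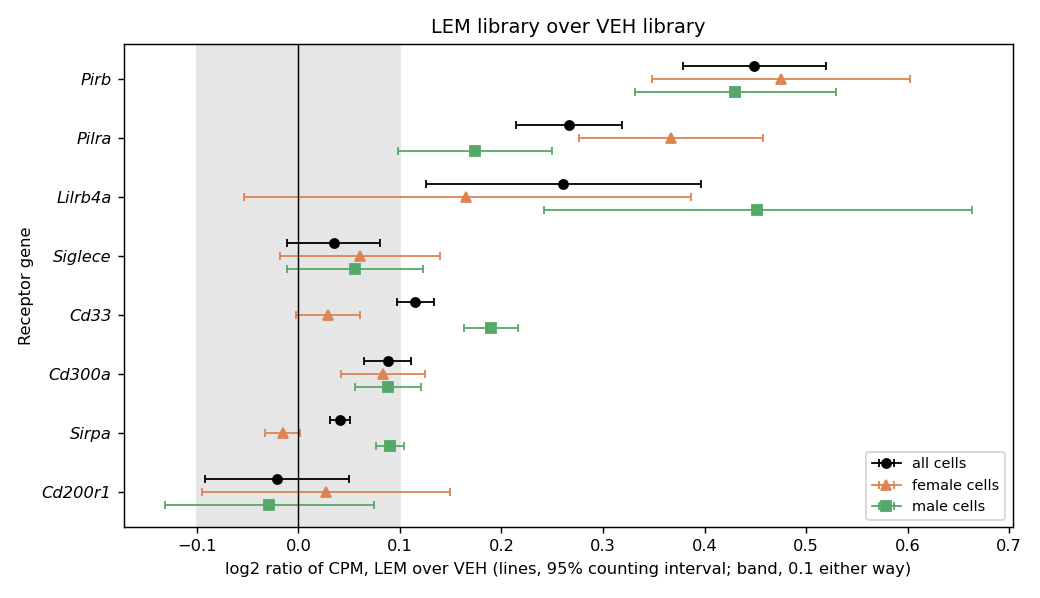
The log2 ratio of CPM in LEM over VEH (horizontal axis) is plotted for each receptor in all cells, female cells and male cells, with lines for exact 95% counting intervals and a grey band for 0.1 in either direction. Pirb lies at 0.45, 0.48 and 0.43 in all, female and male cells, to the right of the band, and the points of Siglece and Cd200r1 lie inside it.

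Cells were called female from Xist and male from Y-linked counts, which parts each pool into cells of different mice under the same treatment. By this call 5686 VEH cells were female and 9025 male, and in LEM 8409 and 11223. Pirb was at 20.5 CPM in VEH and 28.5 in LEM among female cells, and at 22.5 and 30.3 among male cells. Both LEM values were above both VEH values, but the sexes of a treatment share a library and are not replicates of it. Between the sexes of a library Pirb differed by a log2 ratio of -0.14 in VEH and -0.09 in LEM (female over male), less than between the libraries. Pilra was at 41.0 and 52.9 CPM in female and at 41.4 and 46.7 in male cells, so that both LEM values were again the higher, the log2 ratio being 0.37 (0.28 to 0.46) among females and 0.17 (0.10 to 0.25) among males. Within LEM its female level was above its male level by 0.18, against 0.17 between the libraries in male cells.

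Cd33 did not keep this order. It was at 360 CPM in VEH and 367 in LEM among female cells, and at 329 and 375 among male cells. Its log2 ratio of LEM over VEH was 0.03 in female cells, within 0.1, and 0.19 in male cells, and in VEH female cells were above male cells by 0.13, more than the 0.12 between the libraries. Cd300a was lower in female than in male cells of both libraries, at 211 and 231 CPM in VEH and at 224 and 246 in LEM. Lilrb4a was higher in female cells of both, at 7.45 and 5.05 CPM in VEH and 8.35 and 6.91 in LEM. Siglece (0.06 in each sex) and Cd200r1 (0.03 and -0.03) differed little between the libraries in either sex, and Sirpa had a log2 ratio of -0.02 in female and 0.09 in male cells. These differences between sexes were not tested.

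**Figure D2:**
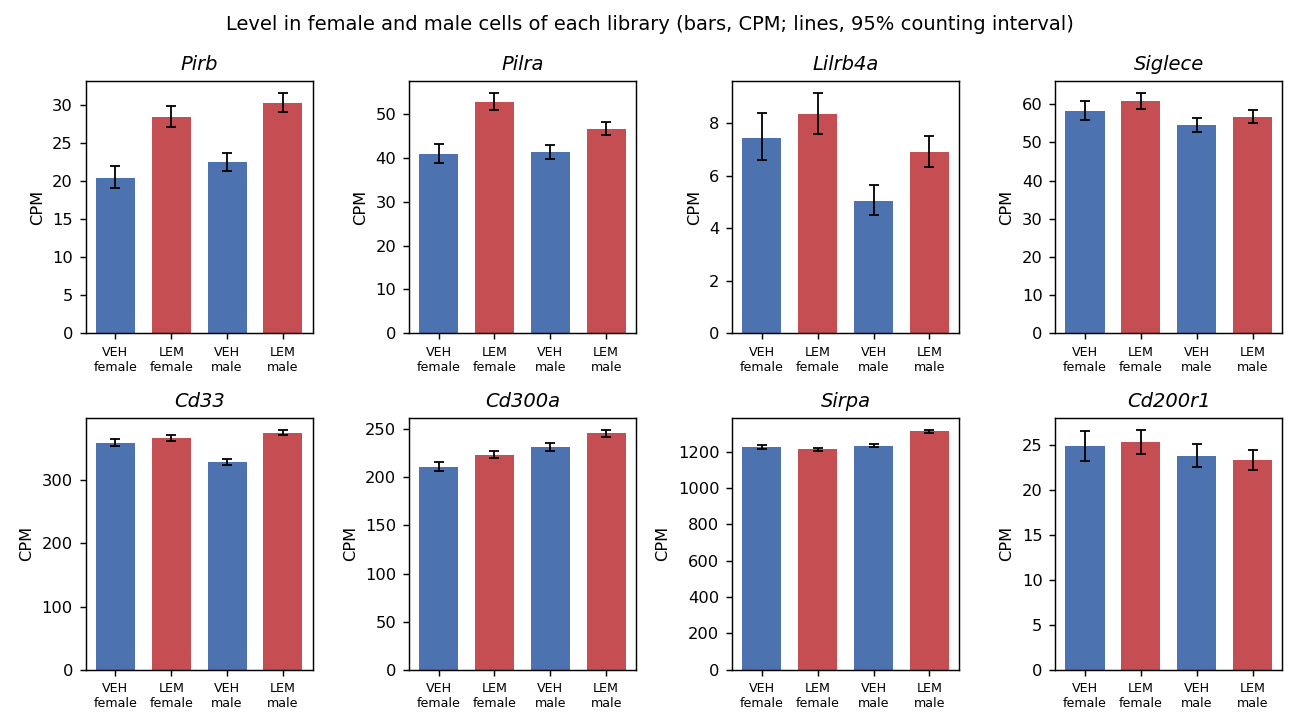
Bars give the CPM of each receptor (vertical axis, from 0) in female and male cells of the VEH and LEM libraries, with lines for exact 95% Poisson intervals. The LEM bars of Pirb, at 28.5 and 30.3, both stand above the VEH bars at 20.5 and 22.5, while the female VEH bar of Cd33 at 360 stands above its male VEH bar at 329.

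The difference in Pirb was read inside the states as well. In the homeostatic gate Pirb was at 22.8 CPM in VEH and 31.1 in LEM (log2 ratio 0.45, 0.37 to 0.53), and the interval was also above 0 in the chemokine-high gate and, through male cells alone (1.97, against -0.69 in female cells) on 27 and 39 counts, in the MHC-II-high gate. In the other 7 of 10 gates with at least 20 cells in each library it held 0. In the DAM gate it was at 8.66 and 11.1 CPM, from 44 and 78 counts, with an interval that held 0 (-0.19 to 0.93). Pilra was at 39.6 and 48.2 CPM in the homeostatic gate (0.28, 0.22 to 0.34) and at 52.3 and 61.5 in the DAM gate (0.23, 0.01 to 0.46). In the DAM gate its ratio was larger in male than in female cells. Cd33 had log2 ratios of 0.13 in the homeostatic gate and 0.11 in the DAM gate, where the interval held 0. Lilrb4a was lower in LEM in the DAM gate, at 50.2 and 39.5 CPM (-0.34, -0.59 to -0.09), and higher in LEM by 0.30 in the homeostatic gate, where the interval held 0. It was higher in LEM in the intermediate gate, on 48 and 164 counts (0.87, 0.40 to 1.36), and in the MHC-II-high gate, on 51 and 76 (0.86, 0.33 to 1.40). The lower level in DAM cells rested on female cells (-0.54), with male cells at -0.08 (-0.46 to 0.30). With cells thinned to 2000 counts, those with 4 to 7 counts of the DAM genes went the other way, at 39.9 CPM in VEH and 59.8 in LEM, with overlapping intervals.

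Pirb has near relatives with which it shares transcript sequence. Pirb lies on chromosome 7 of GRCm38 at 3711409 to 3720391 on the minus strand, 116420 bases from Pira2, an activating paired receptor with a similar extracellular part. Of the windows of 75 bases in the first 500 bases of its annotated transcripts, 17.2% also occur in transcripts of other genes, Pira2 among them, and for Pira2 this share was 70.0%. Pira2 was at 4.58 CPM in VEH and 14.2 in LEM (log2 ratio 1.63, 1.5 to 1.77), in 2.74% and 8.63% of cells. It was higher in LEM by 1.22 in female and 1.97 in male cells. The part of shared sequence in the difference of Pirb was not tested. Pilra (chromosome 5, 137821952 to 137836281, minus strand) shares 3.56% of such windows with Pilrb1 and Pilrb2, which were under 0.5 CPM in both libraries. For Siglece, Cd33, Cd300a, Sirpa and Cd200r1 the share was 0.

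Between states, 4 of the 8 receptors were lower in DAM than in homeostatic cells in both libraries and Lilrb4a was far higher. Siglece, an inhibitory sialic acid receptor of mouse microglia, was at 13.2 CPM in the DAM and 62.0 in the homeostatic gate of VEH, and at 12.7 and 64.1 in LEM. Its log2 ratios were -2.23 (-2.60 to -1.89) and -2.34 (-2.65 to -2.03), at the percentile 0.216 of all genes tested by the mean of both libraries. Pirb was at 8.66 and 22.8 CPM in VEH (-1.39) and 11.1 and 31.1 in LEM (-1.48). Cd33 was at 176 and 356 CPM in VEH (-1.02) and 189 and 389 in LEM (-1.04). Cd300a was at 124 and 232 CPM in VEH (-0.90) and 122 and 247 in LEM (-1.02). Thus DAM cells held a lower share of their counts in each of these receptors in both libraries. In female cells, on 14 and 16 DAM counts, Pirb was at -1.26 in VEH and -2.29 in LEM, with overlapping intervals. The shares of DAM cells with a count were 9.50% and 12% for Pirb and 11.8% and 12.7% for Siglece. In choroid plexus droplets the shares were 7.41% and 14.1% for Pirb and 9.26% and 20.8% for Siglece, lower in VEH and higher in LEM. Against this upper bound, from 54 and 149 droplets, what remained of both in DAM cells could not be told from free RNA.

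The remaining 3 receptors differed by less than 0.5, although Cd200r1 (-0.95 in VEH and -0.85 in LEM) and Pilra (0.73 and 0.50) passed 0.5 in both libraries with gates set on cells thinned to 2000 counts. Pilra was at 52.3 CPM in the DAM and 39.6 in the homeostatic gate of VEH (0.40, 0.22 to 0.58), and at 61.5 and 48.2 in LEM (0.35, 0.21 to 0.49). It was the only receptor besides Lilrb4a above its homeostatic level in both. Sirpa had log2 ratios of -0.21 and -0.32 and Cd200r1 of -0.16 and -0.48. Of the 8 receptors tested, 4 were below -0.5 in both libraries, where 20.5% of the 8792 genes tested were, and 1 was above 0.5 in both, where 7.9% were. That 1 was Lilrb4a, which met the detection minimum only through the DAM gate, where it had to be high. It is also among the 8 of the median that follows. The median of the 8 was -0.64 for the mean of both libraries, while the median of all genes tested was -0.28 in VEH and -0.30 in LEM.

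Lilrb4a was near 0 in homeostatic cells and high in DAM cells and BAM. It was at 1.5 CPM in homeostatic cells of VEH and 50.2 in DAM cells (log2 ratio 5.06, 4.76 to 5.37), and at 1.86 and 39.5 in LEM (4.41, 4.16 to 4.67). Counts were found in 21.5% and 17.6% of DAM cells and in 0.794% and 0.921% of homeostatic cells, and in 1 of 54 and 1 of 149 choroid plexus droplets, too few to set the homeostatic share against free RNA. It passed the detection minimum only through the DAM gate, which had to leave it high there. Its level was highest in the BAM gate, at 213 CPM in VEH and 246 in LEM and in 75% and 79.7% of cells. In the gate rich in MHC class II it was at 42.6 and 77.2 CPM. BAM markers summed to 108 and 138 CPM in that gate, against 3.07 and 2.08 in the homeostatic gate. The DAM gate held 35.5% of all Lilrb4a counts in VEH and 23.3% in LEM, with 4.37% and 4.36% of all counts. In DAM cells with 0 counts of the 6 BAM markers the log2 ratios were 4.97 and 4.37. Lilrb4a (chromosome 10, 51490956 to 51496611, plus strand) shares 36.9% of the windows of its first 500 transcript bases with other genes, Lilr4b among them, which lies 4252 bases away and was at 2.75 and 1.71 CPM in the DAM gate.

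**Figure D3:**
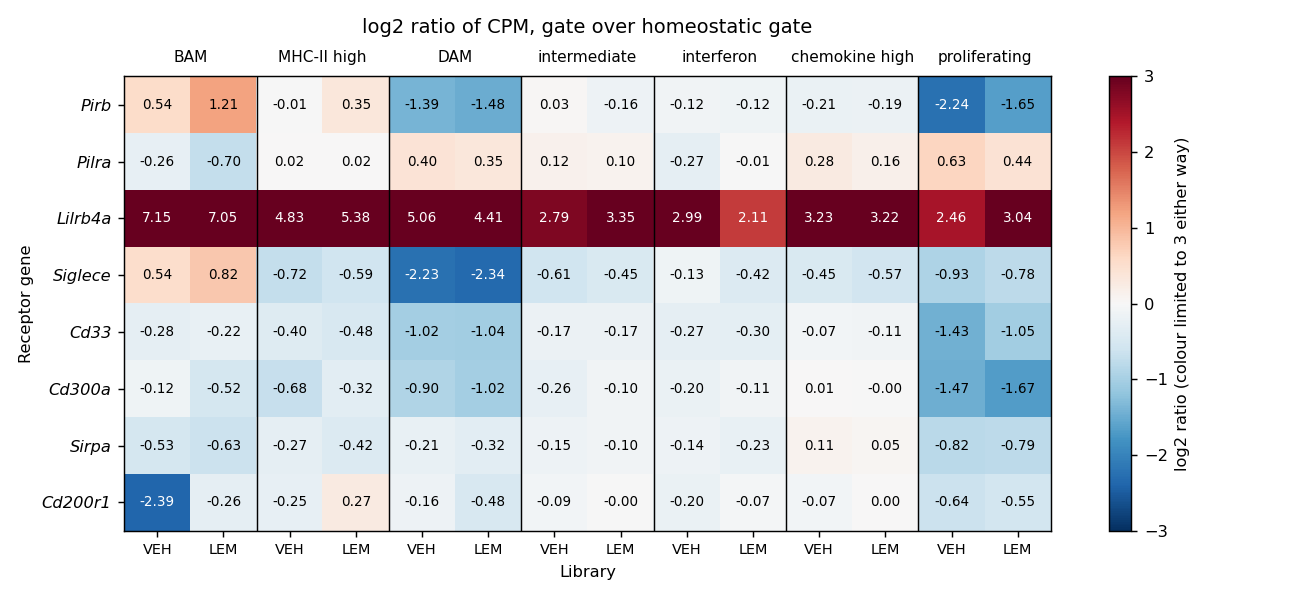
Each cell gives the log2 ratio of CPM of a gate over the homeostatic gate for a receptor (rows) in VEH and LEM (columns in pairs), with red for higher and blue for lower and the colour limited to 3 in either direction. Lilrb4a is above 2 in all 7 gates, and Siglece in the DAM gate stands at -2.23 and -2.34, while the BAM gate of VEH rests on 24 cells.

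**Figure D4:**
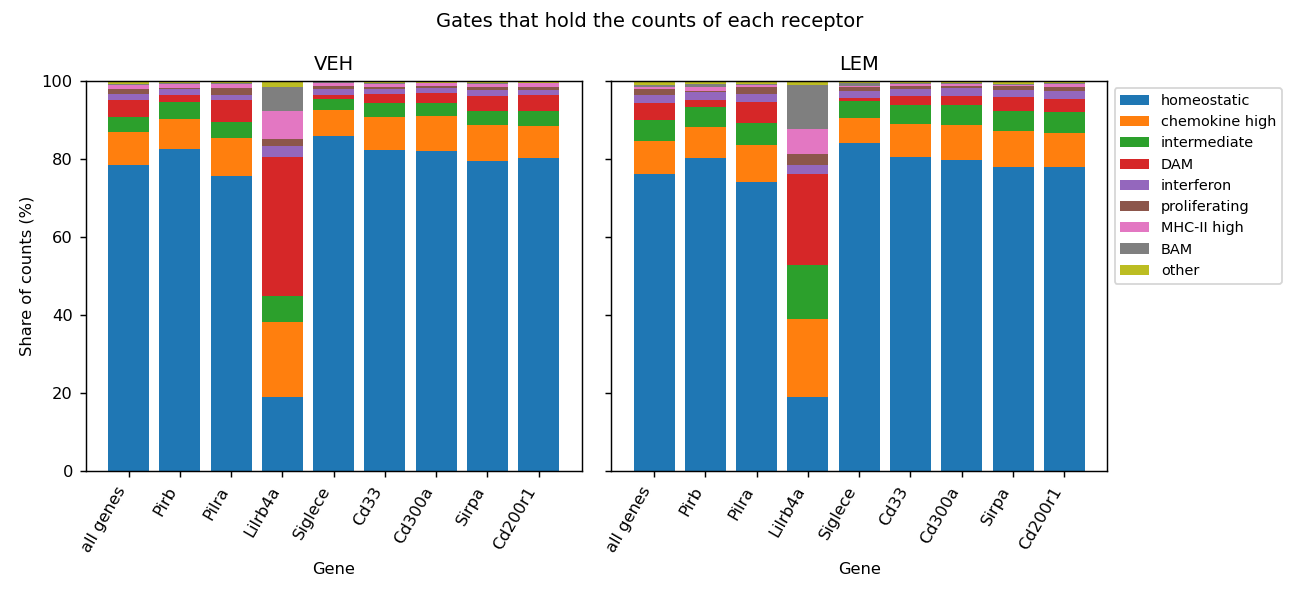
Stacked bars give the share of the counts of each receptor (percent, vertical axis) that fell into each gate in the VEH and LEM libraries, beside the share of all counts. The homeostatic gate held 19.1% of Lilrb4a counts in both libraries, against 78.5% and 76.1% of all counts.

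DAM cells held more counts, with a median of 11453 counts in VEH and 12409 in LEM against 5755 and 5815 in homeostatic cells, so each receptor was also read as counts per cell. Per cell, Cd33 stood at 2.02 counts in DAM and 2.12 in homeostatic cells of VEH, and at 2.32 and 2.40 in LEM. Cd300a was at 1.43 and 1.38 counts per cell in VEH and 1.49 and 1.52 in LEM. These were nearly level, though DAM cells held more counts in all, so counts per cell compare cells of unlike depth. Siglece was lower per cell too, at 0.152 and 0.368 counts in VEH and 0.155 and 0.395 in LEM, and so was Pirb, at 0.0995 and 0.135 in VEH and 0.136 and 0.192 in LEM. Sirpa and Cd200r1 were higher per DAM cell, Sirpa at 12.4 against 7.39 counts in VEH and 12.7 against 7.99 in LEM, and Cd200r1 at 0.256 against 0.147 and 0.215 against 0.151. Among cells of 8000 to 12000 counts alone, Siglece kept log2 ratios of -2.23 and -2.92, Pirb of -1.18 and -1.35, Cd33 of -1.13 and -1.06 and Cd300a of -0.80 and -0.87, while Pilra was at -0.36 in VEH and 0.42 in LEM, so its direction in VEH turned. Sirpa, at -0.13 and -0.35, and Cd200r1, at -0.02 and -0.31, were not higher in DAM cells of that depth.

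The receptors were also read along the amount of DAM transcripts. Cells thinned to 2000 counts, without the choroid plexus, BAM, monocyte or granulocyte and proliferating gates, were ordered by their summed counts of Cst7, Lpl, Itgax and Spp1, from 0 to 8 or more. Siglece went from 59.1 CPM at 0 DAM counts through 49.6, 15.7 and 16.0 to 3.94 at 8 or more in VEH. In LEM it went from 64.6 through 40.9, 21.2 and 8.55 to 4.24. The top band held 1 Siglece count in each library, and the band before it 6 in VEH and 4 in LEM. Cd33 was at 356, 330, 227, 168 and 110 CPM in VEH and at 386, 359, 281, 177 and 110 in LEM. Both genes were lower in the cells with most DAM counts than in those with 0 in each library. P2ry12, a marker of homeostasis, was at 4422 CPM at 0 and 1693 at 8 or more in VEH, and at 4285 and 1814 in LEM. Cd300a went from 231 to 74.8 CPM in VEH and from 251 to 131 in LEM, and Pirb from 24.8 to 0 and from 32.2 to 12.7, where the top band held 0 and 3 Pirb counts in 127 and 118 cells. In LEM Cd300a was not lower in the top band than in the band before it, at 120 CPM. Sirpa went from 1257 to 1016 CPM in VEH and from 1303 to 941 in LEM, with intervals of the ends apart, and Cd200r1 from 24.6 to 15.7 and from 24.9 to 12.7, with intervals that overlapped. Lilrb4a went the other way, from 1.73 to 66.9 CPM in VEH and from 2.92 to 97.5 in LEM, and in the top band the intervals of VEH and LEM overlapped. Pilra was at 41.8 and 59.1 and at 48.5 and 55.1 CPM at the ends of the order, with overlapping intervals.

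**Figure D5:**
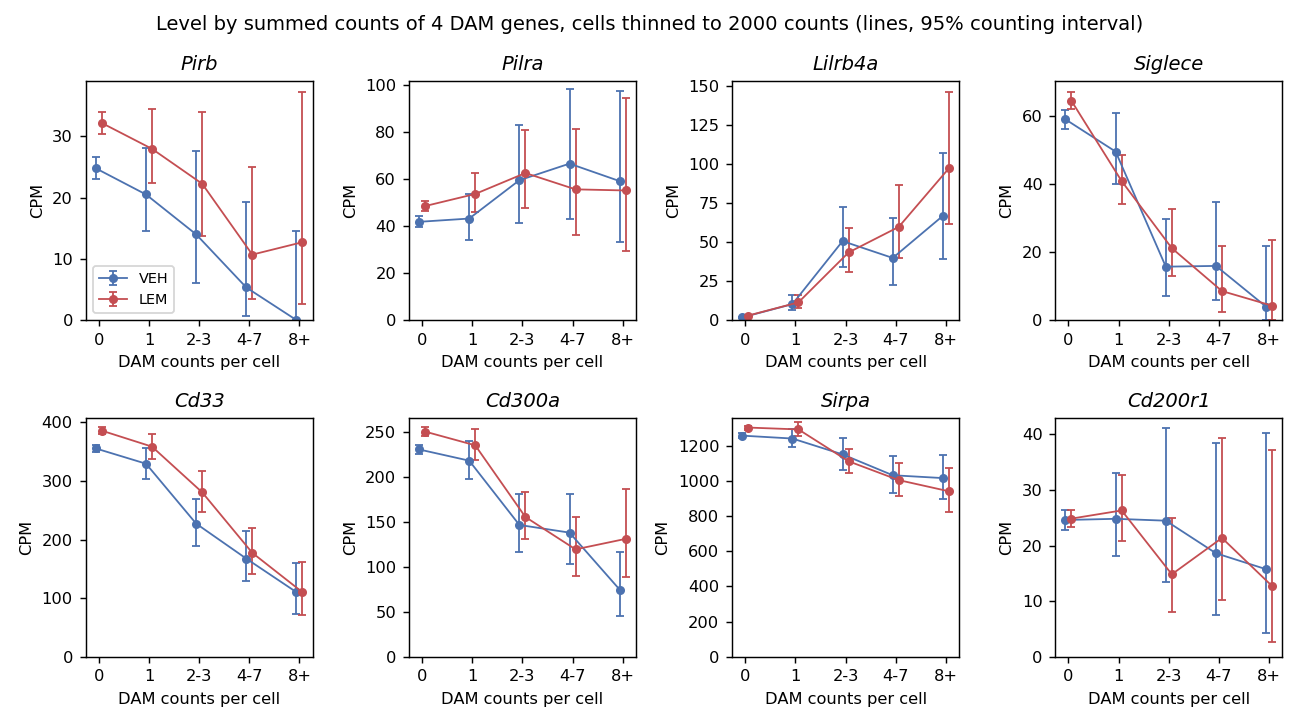
The CPM of each receptor (vertical axis, from 0) is plotted against the summed counts of 4 DAM genes per cell (horizontal axis, 5 bands) in cells thinned to 2000 counts, for VEH and LEM, with lines for exact 95% Poisson intervals. Cd33 goes from 356 to 110 CPM in VEH and from 386 to 110 in LEM, and Lilrb4a from 1.73 to 66.9 and from 2.92 to 97.5.

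The promoters of the receptors with a promoter sequence at hand were examined for the core of the element bound by PU.1, the factor that sets myeloid gene expression. RefSeq promoter sequences of build GRCm38.p6 were matched for 5 of the 8 genes, the 4 that were lower in DAM cells and Pilra. The starts are those of RefSeq, and that of Cd33 lies inside the span GENCODE gives the gene, so the annotations place its start differently. The 250 bases before each annotated start are printed 5′ to 3′ on the strand of the gene, with the letters GAGGAA, or TTCCTC where the match is on the other strand, in capitals.
Siglece, chr7:43660162-43660411, minus strand: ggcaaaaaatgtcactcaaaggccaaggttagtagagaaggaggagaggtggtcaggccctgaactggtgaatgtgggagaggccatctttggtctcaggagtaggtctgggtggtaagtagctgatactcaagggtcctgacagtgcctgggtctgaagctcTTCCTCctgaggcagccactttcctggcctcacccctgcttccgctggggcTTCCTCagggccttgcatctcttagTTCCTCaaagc
Pirb, chr7:3720383-3720632, minus strand: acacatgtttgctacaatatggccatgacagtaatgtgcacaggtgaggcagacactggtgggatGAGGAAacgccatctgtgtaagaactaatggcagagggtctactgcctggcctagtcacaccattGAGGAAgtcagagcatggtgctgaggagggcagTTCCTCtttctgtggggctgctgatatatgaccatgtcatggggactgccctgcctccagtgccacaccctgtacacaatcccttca
Cd33, chr7:43533172-43533421, minus strand: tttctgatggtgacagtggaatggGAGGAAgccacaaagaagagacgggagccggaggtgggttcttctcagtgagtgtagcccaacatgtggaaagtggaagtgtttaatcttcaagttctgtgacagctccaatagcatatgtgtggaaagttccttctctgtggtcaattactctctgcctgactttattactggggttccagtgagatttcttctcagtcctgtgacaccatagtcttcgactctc
Cd300a, chr11:114889791-114890040, plus strand: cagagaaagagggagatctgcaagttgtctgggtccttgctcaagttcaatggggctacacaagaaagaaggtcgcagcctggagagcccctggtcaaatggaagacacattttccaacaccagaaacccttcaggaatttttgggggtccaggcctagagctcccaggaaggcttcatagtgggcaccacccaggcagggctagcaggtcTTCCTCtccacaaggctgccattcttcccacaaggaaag
Pilra, chr5:137836279-137836528, minus strand: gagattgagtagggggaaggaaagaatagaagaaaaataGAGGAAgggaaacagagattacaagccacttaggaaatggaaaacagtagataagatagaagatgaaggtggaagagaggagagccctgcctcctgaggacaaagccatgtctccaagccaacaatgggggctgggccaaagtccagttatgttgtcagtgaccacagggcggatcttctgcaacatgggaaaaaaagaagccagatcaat

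Siglece and Pirb each hold 3 matches. Cd33, Cd300a and Pilra hold 1 match each. With both strands searched, all 5 promoters held a match, as did 23.3% of the 32851 promoters of the same length in that table, and no other motif was searched. A match of 6 letters is a description of the sequence and was not tied to binding of any factor. Siglece and Cd33 are neighbours, 106641 bases apart on the minus strand of chromosome 7, at 43651070 to 43660161 and 43524216 to 43544428. Cd300a lies on chromosome 11 at 114890041 to 114904654, Sirpa on chromosome 2 at 129592835 to 129632228 and Cd200r1 on chromosome 16 at 44765736 to 44794978, each on the plus strand of GRCm38.

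Proliferating cells had a lower CPM of 6 of the 7 receptors tested. Cd300a was at 83.6 CPM in the proliferating and 232 in the homeostatic gate of VEH (log2 ratio -1.47) and at 77.8 and 247 in LEM (-1.67). Cd33 had log2 ratios of -1.43 and -1.05, Siglece of -0.93 and -0.78, Sirpa of -0.82 and -0.79 and Cd200r1 of -0.64 and -0.55. Pirb had ratios of -2.24 and -1.65 on 7 and 22 counts, and its shares of 4.96% and 9.09% of cells were under those of choroid plexus droplets, 7.41% and 14.1%, so its level there could not be told from free RNA. Pilra went the other way, with 61.5 against 39.6 CPM in VEH (0.63) and 65.2 against 48.2 in LEM (0.44). Lilrb4a, under the detection minimum there and so not among the 7, was at 8.29 against 1.5 CPM in VEH and 15.3 against 1.86 in LEM. Of 7 receptors tested 6 were below -0.5 in both libraries, where 10.3% of the 9573 genes tested were, and 0 were above 0.5, where 21.7% were. The share of cells with a count was not lower for Siglece (28.4% against 28.2% in VEH and 30.6% against 29.9% in LEM), Cd200r1 (13.5% against 13.2% and 16.7% against 13.5%) and Sirpa, in proliferating cells that held more counts. These cells had medians of 9821 and 10134 counts against 5755 and 5815, and among cells of 8000 to 12000 counts 4 of the 7 were below -0.5.

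In the interferon gate 0 of 7 receptors were past 0.5 in either direction in both libraries, where 4.01% of genes were above and 1.56% below. Among these 7 the log2 ratio farthest from 0 was -0.42, for Siglece in LEM. In the BAM gate, macrophages of the brain's borders, Siglece was at 90.0 CPM in VEH and 113 in LEM (log2 ratios 0.54 and 0.82). Pirb was at 33.2 and 72.2 CPM (0.54 and 1.21), on 7 and 39 Pirb counts. The VEH ratios of both were just past 0.5 on 24 cells, and their counting intervals are not given here. With Lilrb4a, which met the detection minimum only through the BAM gate, 3 of 8 receptors were above 0.5 in both libraries, where 8.79% of genes were, and Sirpa alone was below -0.5 (-0.53 and -0.63), where 7.93% were. The few BAM droplets limit this comparison, with a single Cd200r1 count in VEH. They also held P2ry12 at 2458 CPM in VEH and 1955 in LEM, against 4571 and 4406 in the homeostatic gate. Their receptor levels may thus not be those of BAM alone.

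Cells often held transcripts of several receptors, mostly of Sirpa, Cd33 and Cd300a. In thinned VEH cells with 0 DAM counts these were at 1257, 356 and 231 CPM, and every other receptor was at 59.1 or less. At 2000 counts per cell a homeostatic cell had a mean of 2.04 ± 0.929 (SD over cells) of the 8 receptors detected in VEH and 2.13 ± 0.947 in LEM. DAM cells had 1.64 ± 0.875 and 1.56 ± 0.849, proliferating cells 1.35 ± 0.794 and 1.41 ± 0.796 and BAM 2.36 ± 1.05 and 2.45 ± 1.32. The share with 3 or more was 29.3% of homeostatic and 15.9% of DAM cells in VEH, and 33.5% and 11.7% in LEM, so it was lower in DAM cells of both libraries. In choroid plexus droplets the mean was 1.44 and 1.09.

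The machinery that these receptors use was read from a list of 12 signalling partners. Ptpn6 (SHP-1) was at 283 CPM in VEH and 299 in LEM (log2 ratio 0.08) and Inpp5d (SHIP-1) at 881 and 898 (0.03). Of 9 partners tested 2 were above 0.1 in LEM, where 14.1% of genes were, the adaptors Dok1 (0.12, with 0.09 in male cells) and Dok3 (0.19). Inppl1, which encodes SHIP-2, was below -0.1 (-0.18), where 9.86% of genes were, and this rested on female cells (-0.38 against -0.02 in male cells). In DAM cells Ptpn6 was level with homeostatic cells (-0.03 in VEH and 0.04 in LEM), whereas Dok3 was far lower, at 12.2 against 71.1 CPM in VEH (-2.54) and 19.3 against 81.5 in LEM (-2.08). Inpp5d, Csk and Lyn were also below -0.5, making 4 of 11 tested, where 20.5% of genes were. The kinases Fgr (3.06 and 2.57) and Fyn (1.48 and 2.05) were above 0.5, where 7.9% of genes were, but both met the detection minimum only through the DAM gate.

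Among 7 genes of ligands, H2-K1 and H2-D1, MHC class I heavy chains that PIRB binds, were higher in LEM by 0.25 and 0.20, from 366 to 437 and from 682 to 781 CPM. The study names the level of both on these libraries, so their direction is not independent evidence. For H2-K1 the difference rested on female cells, with a log2 ratio of 0.61 against -0.02 in male cells. Pianp, a ligand of PILRA, was at 43.2 CPM in VEH and 10.3 in LEM (-2.07, -2.15 to -1.99), in 20.1% and 5.69% of cells, and was lower in LEM in female (-2.80) and male cells (-1.58). Over all cells, Cd47 (-0.03) and B2m, the light chain of MHC class I (0.03), did not move past 0.1. Cd200 had 5 counts in each library. In DAM cells 4 of the 5 tested were above 0.5, where 7.9% of genes were, namely Pianp (1.59 and 1.72), H2-K1, H2-D1 and B2m, and 0 were below -0.5, where 20.5% of genes were.

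Of 19 other inhibitory receptors 11 were tested between the libraries, with 4 above 0.1 in LEM, where 14.1% of genes were, and 0 below -0.1, where 9.86% were. Cd300lf, a lipid receptor that the study also names, was at 117 CPM in VEH and 176 in LEM (0.59), Pdcd1, which encodes PD-1, at 31.9 and 48.0 (0.59), Siglecf at 48.1 and 58.6 (0.29) and Lag3 at 411 and 445 (0.11). The first 3 were above 0.1 in both sexes. In DAM cells 5 of 14 tested were above 0.5, where 7.9% of genes were, and 3 below -0.5, where 20.5% were. The 5 were Siglecf, Pdcd1, Cd22, Milr1 and Cd5, and the last 3 met the detection minimum only through the DAM gate. Siglecf, at 118 against 44.7 CPM in VEH and 99.0 against 57.7 in LEM, thus stood on the other side from Siglece. Clec4a2 (-2.13 and -2.00), Ceacam1 and Vsir were the 3 lower ones. Of 17 activating partners 6 were tested, and Trem2 (0.97 and 0.98) and its adaptor Tyrobp (1.64 and 1.64) were above 0.5 in DAM cells and Syk below (-0.86 and -0.87), while between the libraries Cd300c2 alone was past 0.1 (0.21).

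Over 29 sums of cells by gate, library and sex with at least 50 cells, the likeness of the receptors is given as Pearson correlations of log2(CPM + 1) over points that share libraries, depth and cells of origin. The sums include 63 choroid plexus droplets of LEM. They also include 57, 71 and 56 cells that passed no gate, shallow cells with medians of 1440 counts in VEH and 1370 in LEM, where rare receptors rest on few counts. Cd33 and Cd300a were most alike (r = 0.88), followed by Pirb with Cd33 (0.79) and Pirb with Cd300a (0.76). Pilra and Lilrb4a had negative or near-zero correlations with the others, from -0.39 to -0.06 among the pairs with Lilrb4a. Among 7508 other genes Cd300a had Junb (0.93) and Tifa (0.92) among the nearest, and Cd33 had Fermt3 (0.93) and Lst1 (0.91). Siglece was most like Prkab1 (0.91) and next Clec4a2 (0.89), an inhibitory lectin receptor. For Pirb the nearest was Dram2 (0.88), for Sirpa Hpgds (0.92), for Pilra Naa50 (0.87), for Cd200r1 Mymk (0.84) and for Lilrb4a Olfr111 (0.76).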

How the data were processed

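Sorted brain microglia of PSAPP mice were measured as 1 library per treatment. The authors aligned 5′ libraries with Cell Ranger 8.0.0 to mm10, named SoupX for free RNA, removed cells with few genes, many counts or much mitochondrial RNA, and deposited a table of whole-number counts, genes by cells, that was not normalized. Whether those counts include the SoupX correction is not given in the sources used here. Each cell's name gives its treatment, and the number of unmatched columns was 0. The names hold no barcodes, so barcodes shared between libraries could not be counted, but 0 cells had the same counts as another cell. Nothing states how doublets were treated. They were kept, no caller was run, and cells with both Xist and a Y-linked gene (5.34% of VEH and 7.23% of LEM) were left out in an alternative.

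Counts were summed over cells and scaled to counts per 1000000 (CPM). Log2 ratios have exact conditional binomial intervals and shares of cells Clopper-Pearson intervals, at a confidence level of 95%. No p-value is given. Between libraries a gene was tested, meaning read against a fold, if 10% of cells or more had a count in VEH or LEM, and called past a log2 ratio of 0.1. Between gates the fold was 0.5 in both libraries and the detection minimum was met in either gate. Gates were applied in a fixed order to raw counts. DAM cells needed 3 of 4 genes and 5 counts, because another gene of the planned gate was not analysed here. Thinning to 2000 counts left out 7.10% of VEH and 4.98% of LEM cells. The receptors, lists and gates were chosen with earlier results of these data known. Named genes are the receptors, genes of those lists and the 3 genes most correlated with each receptor. Some results that this rule would name are left out and not reported here. P2ry12, Apoe and Csf1 are markers. Positions and transcripts are from GENCODE M21 and promoters from RefSeq. The ratio step was tested on simulated data. Python 3.11.15, numpy 2.4.6, scipy 1.17.1 and matplotlib 3.10.9 were used.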

Additional observations from a re-analysis of the deposited data

Results flagged for a closer look

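Over all cells, none of the 8 receptors went in opposite directions in female and male cells of LEM over VEH with both counting intervals off 0. Inside the gates 2 did, Cd300a in the DAM gate, with log2 ratios of 0.29 in female and -0.27 in male cells, and Sirpa in the chemokine-high gate, with -0.11 and 0.0922. Among the genes of the lists 6 did over all cells, and these differences between the sexes were not tested. Siglecg, found in 3.59% of VEH and 3.78% of LEM cells and so under the detection minimum, had -0.38 in female and 0.24 in male cells. B2m, the light chain of MHC class I, had a log2 ratio of 0.15 in female and -0.0855 in male cells. Clec4a2 had -0.16 in female and 0.12 in male cells, and Lag3 -0.0857 and 0.25. Trem2 had 0.0326 and -0.0138, and Vsir 0.0288 and -0.12, both small in size.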

How the results depend on the processing

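No paired analysis was possible because each treatment has 1 library and no test was made. The 3 receptors past 0.1 in LEM over VEH became 5 with cells thinned to 2000 counts, where Siglece (0.11) and Cd300a (0.11) joined, and 2 in female cells or at a fold of 0.25, where Cd33 dropped out. With gates set on thinned cells the interferon gate had 1 receptor past 0.5 in place of 0. At a fold of 1 the count for proliferating cells went from 6 to 3 and that for BAM from 4 to 1. As a mean over cells the BAM count was 2 higher and 2 lower in place of 3 and 1, and that for proliferating cells 1 higher and 5 lower in female cells or without cells over 12000 counts, in place of 0 and 6. The count for DAM cells was 4 to 7 over 11 alternatives, against 5 as reported. The ratio of Pirb in LEM over VEH ranged from 0.39 to 0.48 over the reported value and 11 alternatives, that of Pilra from 0.17 to 0.37 and that of Lilrb4a from 0.16 to 0.51, highest with cells thinned to 2000 counts. Read as counts per cell, Cd300a in DAM over homeostatic cells of VEH turned from -0.90 to 0.0489, Sirpa from -0.21 to 0.74 (in LEM, -0.32 to 0.67) and Cd200r1 from -0.16 to 0.80 (in LEM, -0.48 to 0.51). The CPM ratio of Pilra there ranged from -0.36 to 0.73. The views by counts per cell, at 8000 to 12000 counts and without BAM markers were chosen after seeing the data. The BAM gate could not be read under 6 alternatives that left under 20 cells, and Pirb and Siglece had 0 counts in DAM cells of VEH with gates on thinned cells. Depth limits Pirb in proliferating cells to 7 and 22 counts and Cd200r1 in BAM to 1 and 11.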
